A study of Mus musculus with 15 samples.

Results

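The plasma proteins of complement and of blood coagulation are made for the most part by hepatocytes, and their mRNAs were followed here across mouse livers that lacked JNK1 or JNK2, with or without NEMO. The group was set as a list of 36 genes by function, not by measured values. A gene was taken as measured where a probe set of the array carried that gene symbol alone, and where a gene had several, the brightest on average was used. Of the 36 genes, 34 were measured, among 19938 genes in all. C3 was not analysed here because no probe set with its symbol alone was in the table. Klkb1, plasma kallikrein, shared its only probe set with Cyp4v3 and was left out of all counts.

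Both systems are cascades of proteases that circulate as inactive precursors. Complement is started by antibody, by sugar-binding lectins or on bare surfaces, and it ends in a pore built from the terminal components. Coagulation ends in thrombin, which turns fibrinogen into fibrin, while protein C, protein S and the serpins restrain it and plasmin dissolves the clot. Fibrinogen is also an acute-phase protein, whose synthesis in the liver rises after inflammatory cytokines such as interleukin-6. NEMO is the regulatory subunit of the kinase complex that activates NF-kB, and JNK1 and JNK2 are stress-activated kinases.

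RNA from whole livers of 15 C57BL/6 mice, all 8 weeks old and labelled male, was hybridized to Affymetrix arrays. Each mouse had its own array, and each group had 3 mice. WT mice carried floxed NEMO alleles without deletion. Jnk1 KO and Jnk2 KO mice were Jnk1-/- or Jnk2-/- in all cells. The double knockouts, NEMO/Jnk1 DKO and NEMO/Jnk2 DKO, were Jnk1-/- or Jnk2-/- in all cells and had also lost NEMO in hepatocytes through Alb-cre, so that the other cells of these livers kept NEMO. A group without NEMO but with both JNKs was not analysed here, so NEMO loss was assessed in Jnk-null livers. Values are log2 expression levels, a difference is a difference of log2 levels with its standard error (SE), and n = 3 arrays per group unless another number is given. A gene passed the test at a Benjamini-Hochberg adjusted p under 0.05 from limma, fitted to all 15 arrays and adjusted over all 19938 genes. In whole tissue, fewer cells of a type and less RNA per cell cannot be told apart.

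The number of arrays limits the precision, and array medians over all probe sets were 4.26 to 4.38. Mapk9, which encodes JNK2, read 2.39 to 3.28 in the 6 Jnk2-null arrays and 7.41 to 7.67 in the other 9. Mapk8, which encodes JNK1, read 5.87 to 6.53 in the 6 Jnk1-null arrays and 6.58 to 7.03 in the others. The NEMO label was in doubt in 2 arrays. Ly6d read 10.12 in the library labelled Jnk1 KO replicate 1 and 9.70 in that labelled Jnk2 KO replicate 3, as in the double knockouts (7.88 to 10.48) and not as in the other 7 NEMO-intact arrays (4.67 to 5.35). Mmp12 and Ikbkg, which encodes NEMO, went against the label in the same libraries. These are called the 2 doubted arrays, and results are given with and without them. Without them Jnk1 KO and Jnk2 KO have n = 2 each. The doubted arrays were set aside by expression, so calls gained without them are not independent evidence. Xist, transcribed from the inactive X chromosome of female cells, read 8.68 in Jnk1 KO replicate 1, 9.17 in NEMO/Jnk1 DKO replicate 1 and 9.08 in its replicate 2. The other 12 arrays read 2.40 to 2.82, although all mice were labelled male.

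Hepatocyte markers were high in every group. Alb, albumin, read 13.04 to 13.21 in the 15 arrays, and the mean of 8 hepatocyte markers was 12.23 to 12.37 in WT, 12.11 to 12.22 in NEMO/Jnk1 DKO and 12.11 to 12.15 in NEMO/Jnk2 DKO. Single markers differed more from WT, from -0.64 to 0.07 in NEMO/Jnk1 DKO and from -0.58 to 0.05 in NEMO/Jnk2 DKO. In each, 5 of the 8 lay below 0 and 0 passed as labelled. The mean of 9 macrophage and monocyte markers was 5.69 to 6.18 in WT, 6.82 to 7.39 in NEMO/Jnk1 DKO and 6.71 to 7.27 in NEMO/Jnk2 DKO, and 7.11 and 6.96 in the doubted arrays. The mean of 6 stellate cell markers was 6.14 to 6.33 in WT, 7.36 to 7.50 where NEMO and JNK1 were lost, 7.05 to 7.31 where NEMO and JNK2 were lost, and 7.64 and 7.77 in the doubted arrays. The part of any of these shifts in the results below was not tested.

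Few of the measured members passed the test as labelled. Against WT, 1 of 34 passed in Jnk2 KO (Fga, higher; 0.411% of all genes passed) and 2 of 34 in NEMO/Jnk2 DKO (Fga higher and F7 lower; 2.63% of all genes). In the same limma test no member passed in Jnk1 KO (2 at an unadjusted p under 0.05; 0.01% of all genes passed) or in NEMO/Jnk1 DKO (11 at an unadjusted p under 0.05; 0.0652% of all genes). The members' median difference from WT was -0.09 for Jnk1 KO and -0.06 for Jnk2 KO, and it was -0.16 for NEMO/Jnk1 DKO and -0.15 for NEMO/Jnk2 DKO, beside -0.03, -0.04, -0.04 and -0.04 over all genes. All 4 share the WT arrays. Without the doubted arrays, 5 of 34 members passed in NEMO/Jnk1 DKO (7.91% of all genes passed) and 10 of 34 in NEMO/Jnk2 DKO (10.6% of all genes), while the counts in Jnk1 KO and Jnk2 KO were still 0 and 1, with 0.015% and 1.24% of all genes. The differences between a double knockout and WT do not contain the doubted arrays. They were the same in both settings, and only the estimated spread differed. With a term for sex as well, NEMO/Jnk1 DKO rests on its replicate 3 alone, and 0 members passed against WT (1.31% of all genes), so that the calls of F7, C2, C8g, Proc and Cfp there were all lost.

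**Figure D1:**
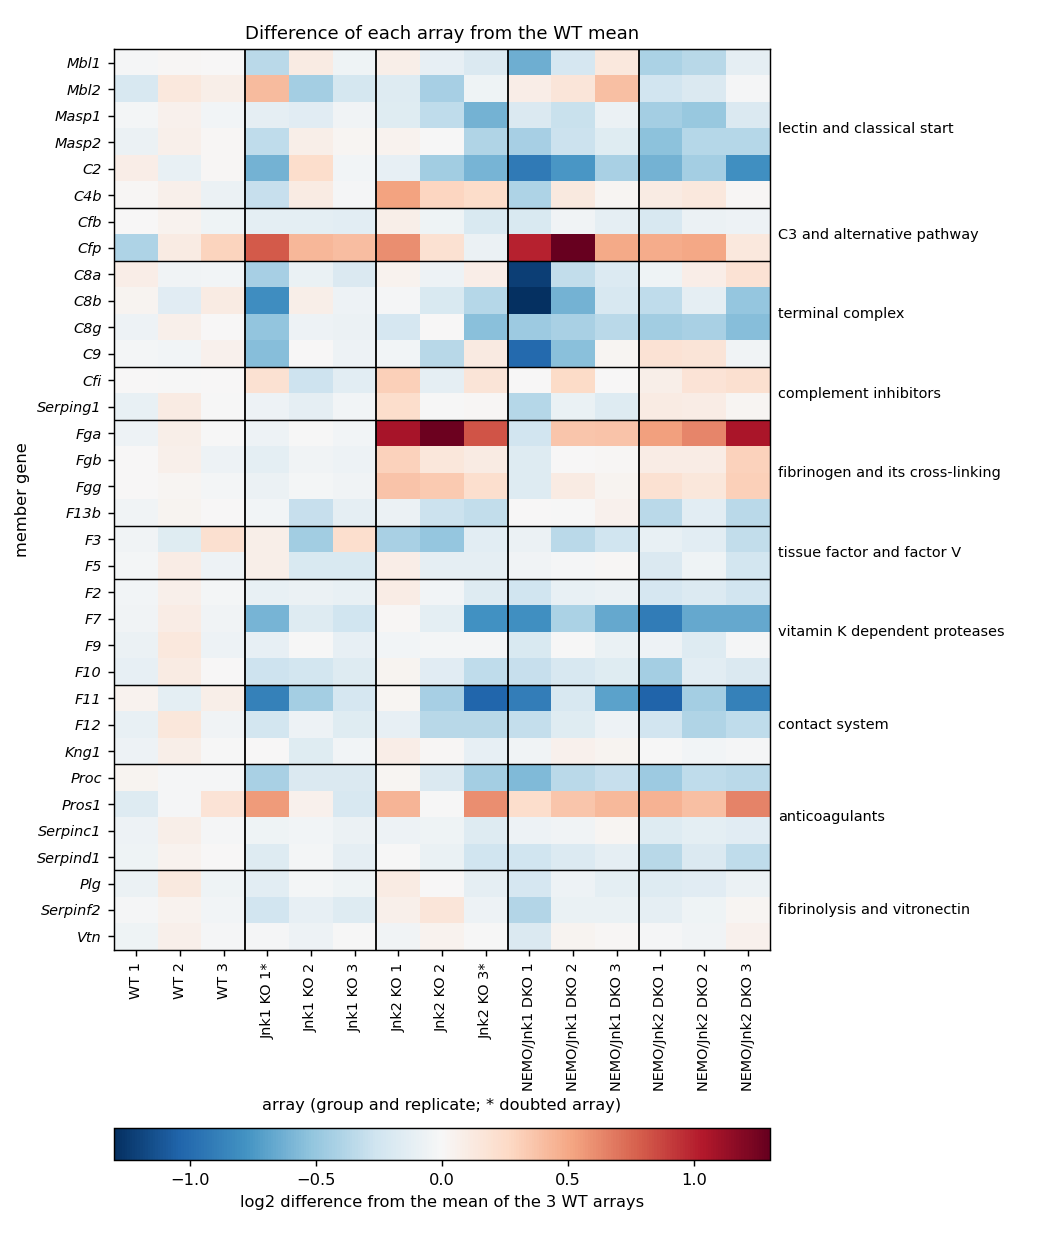
Deviation of the 34 measured members (rows, ordered by role) from their WT mean in each of the 15 arrays (columns), in log2 units. Fga stands out in the 6 Jnk2-null arrays, where Fgb and Fgg differ less from WT. C8a, C8b and C9 are lowest in the arrays with Xist. The colour scale ends at its limits, beyond which C8b in NEMO/Jnk1 DKO replicate 1 and Cfp in its replicate 2 lie.

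The 3 fibrinogen genes were higher in livers without JNK2. Fga, Fgb and Fgg encode the alpha, beta and gamma chains, which are assembled into 1 protein, and they lie next to each other on chromosome 3 in the order Fgg, Fga, Fgb. In all 6 Jnk2-null arrays each of them, by the probe set used, read higher than in any of the other 9 arrays. Of the 34 members 8.82% had this separation, and of all genes 0.201% had it. The 2 doubted arrays do not disturb it, since the one labelled Jnk2 KO lay with the Jnk2-null arrays and the one labelled Jnk1 KO with the others.

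The stretches of 250 bases before the RefSeq starts of these genes (GRCm38.p6) are given because the 3 genes stood together in the arrays. Capitals mark letters that match a motif searched on both strands, where CTGGGA is the core named for acute-phase STAT sites, TTGCNNAA a C/EBP-like motif, GTTAAT an HNF1 half-site (which stands on the other strand in both windows that hold it) and TGANTCA an AP-1 motif.
Fgg, chr3:83007474-83007723, plus strand: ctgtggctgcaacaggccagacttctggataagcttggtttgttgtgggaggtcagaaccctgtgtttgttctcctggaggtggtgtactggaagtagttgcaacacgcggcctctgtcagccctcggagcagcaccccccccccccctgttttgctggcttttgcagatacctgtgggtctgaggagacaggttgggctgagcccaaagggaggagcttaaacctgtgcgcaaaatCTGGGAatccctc
Fga, chr3:83025903-83026152, plus strand: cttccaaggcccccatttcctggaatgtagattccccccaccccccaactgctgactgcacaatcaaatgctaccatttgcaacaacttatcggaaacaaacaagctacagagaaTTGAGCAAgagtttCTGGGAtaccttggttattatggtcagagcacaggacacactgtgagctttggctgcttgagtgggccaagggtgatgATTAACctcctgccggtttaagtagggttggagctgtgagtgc
Fgb, chr3:83049864-83050113, minus strand: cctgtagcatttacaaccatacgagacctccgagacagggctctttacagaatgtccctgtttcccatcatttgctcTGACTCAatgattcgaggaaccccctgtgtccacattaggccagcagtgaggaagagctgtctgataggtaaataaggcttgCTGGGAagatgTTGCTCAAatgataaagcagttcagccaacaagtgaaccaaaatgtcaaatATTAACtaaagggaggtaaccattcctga
CTGGGA occurred in all 3 windows, from 121 to 116 bases before the start in Fga, from 91 to 86 in Fgb and from 13 to 8 in Fgg. It also occurred in 27.0% of 32851 windows of this length over all genes with an entry, and in 10 of the 25 members with a window. TTGCNNAA occurred in Fga and Fgb, from 135 to 128 and from 80 to 73 bases before the start (9.56% of all windows). GTTAAT occurred in both as well, from 43 to 38 and from 29 to 24 bases before it (6.43%). TGANTCA occurred in Fgb (6.75%). Of the 25 members with a window, TTGCNNAA occurred in 5, GTTAAT in 7, F13b among them, and TGANTCA in 4. An NF-kB-like motif, GGG and TTCC with any 3 bases between them, was not found in these letters in any of the 25 members with a window (4.65% of all windows). The motifs do not overlap in these windows. They were chosen with the sequences in view, and a match is a description of letters, not of binding.

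Fga, the alpha chain, read 10.23, 10.37 and 10.29 in WT and 10.23, 10.29 and 10.26 in Jnk1 KO, against 11.37, 11.58 and 11.11 in Jnk2 KO. In the double knockouts it read 10.05, 10.65 and 10.67 without JNK1 and 10.83, 10.93 and 11.36 without JNK2. The Jnk1 KO and WT arrays overlapped, and every Jnk2-null array lay above every other one, though not by a second probe set given below. Fga rose by 1.06 in Jnk2 KO over WT (SE 0.17, limma adjusted p = 0.0194), which is 2.08-fold on the linear scale, and by 0.74 in NEMO/Jnk2 DKO over WT (SE 0.17, adjusted p = 0.0411), or 1.68-fold. The first call was lost without Jnk2 KO replicate 1 or 2 or any WT array (differences of 0.94 to 1.09, adjusted p = 0.0521 to 0.103), and the second without Jnk2 KO replicate 1 or any array of the groups compared (0.58 to 0.85, adjusted p = 0.0501 to 0.121). Directly between the single knockouts, 1 of 34 members passed (0.13% of all genes). It was Fga, with a difference, Jnk1 KO less Jnk2 KO, of -1.09 (SE 0.17, limma adjusted p = 0.0281). This call was lost without Jnk1 KO replicate 2 or 3, Jnk2 KO replicate 1 or 2 or WT replicate 2 or 3 (differences of -1.11 to -0.98, adjusted p = 0.0528 to 0.139). With the doubted arrays left out Fga was still the 1 member that passed (0.597% of all genes).

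Fgg, the gamma chain, read 12.44, 12.46 and 12.42 in WT, 12.37, 12.42 and 12.40 in Jnk1 KO and 12.81, 12.78 and 12.66 in Jnk2 KO. It read 12.27, 12.55 and 12.47 in NEMO/Jnk1 DKO and 12.64, 12.59 and 12.75 in NEMO/Jnk2 DKO. The gap between the Jnk2-null arrays and the rest was 12.59 to 12.55 at its narrowest. Between Jnk2 KO and WT the difference was 0.31 (SE 0.09, limma adjusted p = 0.141), and between NEMO/Jnk2 DKO and WT it was 0.22 (SE 0.09, adjusted p = 0.18).

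Fgb, the beta chain, read 12.45, 12.51 and 12.38 in WT, 12.32, 12.40 and 12.38 in Jnk1 KO and 12.74, 12.60 and 12.56 in Jnk2 KO. It read 12.27, 12.46 and 12.46 in NEMO/Jnk1 DKO and 12.54, 12.54 and 12.75 in NEMO/Jnk2 DKO. The lowest Jnk2-null array, at 12.54, was close to the highest WT array, at 12.51. The difference from WT was 0.19 in Jnk2 KO (SE 0.09, limma adjusted p = 0.424) and 0.16 in NEMO/Jnk2 DKO (SE 0.09, adjusted p = 0.352).

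Over all 6 Jnk2-null against all 6 Jnk1-null arrays, a comparison added with earlier results of these data known, 2 of 34 members passed (0.547% of all genes). Fga was higher without JNK2 by 0.84 (SE 0.12, limma adjusted p = 0.00529) and Fgg by 0.29 (SE 0.06, adjusted p = 0.0486). Fga kept its call without any single array, while Fgg lost it without each of 14 arrays and kept it without Jnk2 KO replicate 3 (adjusted p = 0.0417; the others 0.0521 to 0.127). Fgb was at 0.24 (SE 0.06, adjusted p = 0.141). Fga, with the doubted arrays left out, was at 0.89 (SE 0.13, adjusted p = 0.0052) and Fgg at 0.31 (SE 0.06, adjusted p = 0.0566), so that 1 member passed (1.12% of all genes). The 3 arrays with Xist are all Jnk1-null, and with a term for sex Fga was at 0.75 (SE 0.15, adjusted p = 0.056).

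Some other acute-phase mRNAs were also higher in the Jnk2-null arrays. Of 12 acute-phase genes, which hold no member, 3 passed as higher in all Jnk2-null than in all Jnk1-null arrays (Saa1, Saa2 and Hp; 0.547% of all genes passed). Against WT, 1 passed as higher in Jnk2 KO (0.411% of all genes) and 4 in NEMO/Jnk2 DKO (2.63%), where 2 of the 12 lay below 0. Without the doubted arrays Saa3 passed as lower in NEMO/Jnk2 DKO than in WT, at -0.70 (SE 0.17, limma adjusted p = 0.0145). Saa2, serum amyloid A2, read 10.23 to 11.97 in the Jnk2-null arrays and 7.10 to 8.87 in the others. The mean of the 12 genes was 9.54 to 9.93 in Jnk2 KO and 9.53 to 10.25 in NEMO/Jnk2 DKO, against 8.59 to 8.72 in WT, and it was 8.59 to 9.19 for Jnk1 KO and 8.50 to 9.05 for NEMO/Jnk1 DKO. Its part in the fibrinogen result was not tested.

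**Figure D2:**
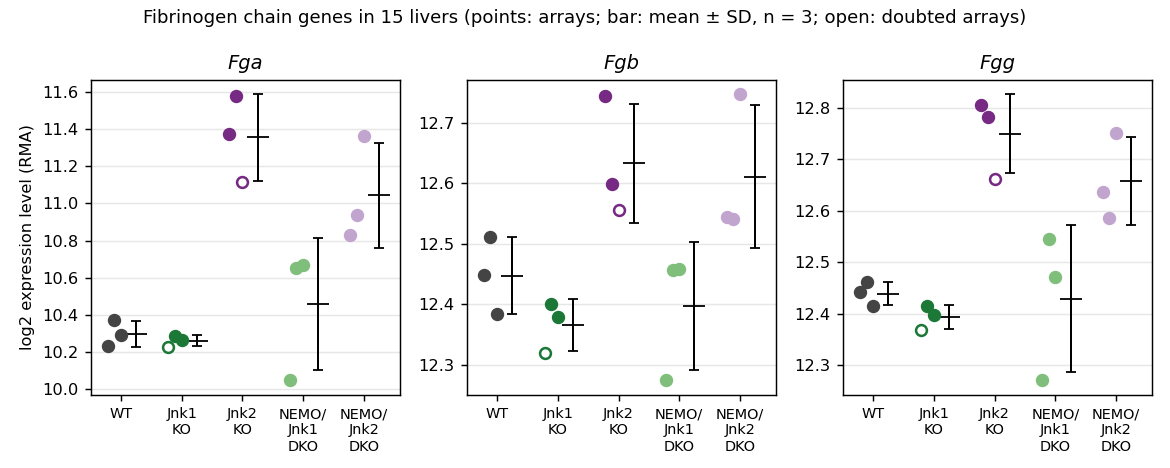
Log2 levels of Fga, Fgb and Fgg in each array of the 5 groups, with single arrays as points, open for the doubted arrays, and the group mean ± SD (n = 3). The 6 Jnk2-null arrays sit above the other 9 in each panel.

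F13b, the carrier subunit of the factor that cross-links fibrin, did not follow fibrinogen. It read 9.87, 9.95 and 9.92 in WT, 9.84, 9.63 and 9.59 in Jnk2 KO and 9.56, 9.77 and 9.56 in NEMO/Jnk2 DKO. Its difference from WT was -0.23 in Jnk2 KO (SE 0.10, limma adjusted p = 0.365) and -0.28 in NEMO/Jnk2 DKO (SE 0.10, adjusted p = 0.13). Jnk1 KO, at 9.76 ± 0.14 (SD, n = 3), and NEMO/Jnk1 DKO, at 9.93 ± 0.03, lay nearer to WT, at 9.91 ± 0.04.

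Of the proteins that act before thrombin, tissue factor and factor V showed no call. F3, tissue factor, which starts coagulation outside the vessel, read 4.31, 4.20 and 4.56 in WT and 3.94, 3.85 and 4.22 in Jnk2 KO, near the array medians, with a difference of -0.35 (SE 0.16, limma adjusted p = 0.405). It read 4.43, 3.90 and 4.58 in Jnk1 KO. The double knockouts read 4.28, 4.0 and 4.09 without JNK1 and 4.26, 4.22 and 4.03 without JNK2. The groups overlapped. F5, the cofactor of factor Xa, ranged over the group means from 9.87 ± 0.09 in NEMO/Jnk2 DKO to 10.03 ± 0.09 in WT (SD, n = 3).

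Factor VII was lower in both double knockouts. F7 encodes the protease that tissue factor binds, a vitamin K dependent protein with a short life in plasma. It read 9.20, 9.34 and 9.20 in WT, 8.45, 8.83 and 8.58 in NEMO/Jnk1 DKO and 8.34, 8.58 and 8.58 in NEMO/Jnk2 DKO. It read 8.65, 9.07 and 8.99 in Jnk1 KO and 9.26, 9.11 and 8.45 in Jnk2 KO. The low values of the single knockouts, 8.65 and 8.45, came from the 2 doubted arrays. The other 7 NEMO-intact arrays lay above all 6 double knockouts, and every Jnk1 KO array lay below WT.

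Against WT, F7 fell in NEMO/Jnk2 DKO, with a difference of -0.75 (SE 0.18, limma adjusted p = 0.0473), so that WT was 1.68-fold higher. The call was lost in turn without 12 of the 15 arrays, which include every array of both groups (differences of -0.79 to -0.66, adjusted p = 0.0504 to 0.178), and it held without Jnk1 KO replicate 1 or Jnk2 KO replicate 1 or 3. In NEMO/Jnk1 DKO the difference was -0.63 (SE 0.18, adjusted p = 0.142). Without the doubted arrays the SE was 0.11 in both, and both passed (limma adjusted p = 0.000888 and 0.00365). With a sex term as well NEMO/Jnk1 DKO was at -0.67 (SE 0.16, adjusted p = 0.0703). Against its own single knockout, NEMO/Jnk2 DKO then had lower F7 as well, with a difference of -0.69 (SE 0.12, limma adjusted p = 0.0055).

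The window of 250 bases before the start of F7 is given because F7 and C2 had the largest differences among the members that passed in both double knockouts without the doubted arrays, and no window was used for C2. The window holds none of the 5 motifs.
F7, chr8:13025784-13026033, plus strand: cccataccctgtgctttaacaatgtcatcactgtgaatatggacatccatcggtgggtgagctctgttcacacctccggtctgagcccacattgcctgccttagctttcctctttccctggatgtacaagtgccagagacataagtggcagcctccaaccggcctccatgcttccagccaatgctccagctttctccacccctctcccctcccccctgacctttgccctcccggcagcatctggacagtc
F10, factor X, follows F7 as the next protein-coding gene on chromosome 8. It read 10.78, 10.99 and 10.89 in WT, 10.59, 10.68 and 10.72 in NEMO/Jnk1 DKO and 10.45, 10.75 and 10.70 in NEMO/Jnk2 DKO. All 6 double knockouts lay below WT, with differences of -0.22 (SE 0.11, limma adjusted p = 0.321) and -0.26 (SE 0.11, adjusted p = 0.217). Whether F7 and F10 differed in their response was not tested.

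Prothrombin and factor IX were at smaller differences than F7. F2, prothrombin, differed from WT by -0.14 (SE 0.08, limma adjusted p = 0.431) without JNK1 and NEMO and by -0.21 (SE 0.08, adjusted p = 0.181) without JNK2 and NEMO. F9, the X-linked factor IX, was at -0.10 and -0.08 (SE 0.08 for both, adjusted p = 0.606 and 0.658). Its group means spanned 0.10, from 9.36 in NEMO/Jnk1 DKO to 9.46 in WT, and each group's SD was at most 0.12 (n = 3).

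In the contact system, F11 varied most. F11, factor XI, which activates factor IX, read 9.43, 9.26 and 9.46 in WT, 8.50, 8.94 and 9.17 in Jnk1 KO and 9.40, 8.95 and 8.36 in Jnk2 KO. It read 8.49, 9.18 and 8.68 in NEMO/Jnk1 DKO and 8.34, 8.94 and 8.51 in NEMO/Jnk2 DKO. All arrays of Jnk1 KO and of both double knockouts lay below WT, the 2 doubted arrays at 8.50 and 8.36 among the lowest, and the double knockouts overlapped the other single knockouts. The difference of NEMO/Jnk2 DKO from WT was -0.79 (SE 0.25, limma adjusted p = 0.11), and it passed without the doubted arrays (SE 0.19, adjusted p = 0.0165). NEMO/Jnk1 DKO was at -0.60 (SE 0.25, adjusted p = 0.262).

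F12, factor XII, was at -0.32 (SE 0.10, limma adjusted p = 0.0999) in NEMO/Jnk2 DKO and at -0.28 (SE 0.10, adjusted p = 0.278) in Jnk2 KO against WT, and NEMO/Jnk1 DKO lay at -0.18 (SE 0.10, adjusted p = 0.398). Kng1, the precursor of bradykinin, had group means from 12.28 to 12.36, which spanned 0.08, and a near-identical copy, Kng2, may share its signal. The probe set shared by Klkb1 and Cyp4v3 read 10.79 ± 0.04 in WT, 10.27 ± 0.19 with NEMO and JNK1 lost and 10.18 ± 0.25 with NEMO and JNK2 lost (SD, n = 3). It read 10.55 ± 0.29 in Jnk1 KO and 10.47 ± 0.26 in Jnk2 KO, both below WT, with the doubted arrays lowest at 10.21 and 10.19.

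The anticoagulants went in different directions. Proc, protein C, which inactivates factors V and VIII, read 10.60, 10.55 and 10.55 in WT, 9.99, 10.21 and 10.27 in NEMO/Jnk1 DKO and 10.09, 10.24 and 10.22 in NEMO/Jnk2 DKO. It read 10.14, 10.38 and 10.38 in Jnk1 KO and 10.60, 10.37 and 10.12 in Jnk2 KO, where the lowest values, 10.14 and 10.12, again came from the doubted arrays. Every Jnk1 KO array lay below WT, and the double knockouts lay below the 7 NEMO-intact arrays that were not doubted. Against WT they were at -0.41 (SE 0.12, limma adjusted p = 0.142) and -0.38 (SE 0.12, adjusted p = 0.0989). Both passed without the doubted arrays (SE 0.10, adjusted p = 0.0194 and 0.0206). With a sex term as well NEMO/Jnk1 DKO was at -0.29 (SE 0.13, adjusted p = 0.398).

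Pros1, protein S, the cofactor of protein C, pointed upward. It read 8.08, 8.23 and 8.42 in WT, 8.47, 8.60 and 8.66 in NEMO/Jnk1 DKO and 8.70, 8.63 and 8.88 in NEMO/Jnk2 DKO. It read 8.79, 8.30 and 8.04 in Jnk1 KO and 8.68, 8.24 and 8.85 in Jnk2 KO. The double knockouts lay above WT and overlapped the single knockouts. Pros1 was higher in NEMO/Jnk2 DKO than in WT by 0.49 (SE 0.18, limma adjusted p = 0.16), and this passed without the doubted arrays (SE 0.13, adjusted p = 0.0299).

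Serpind1, heparin cofactor II, read 11.12, 11.22 and 11.18 in WT, 10.92, 10.99 and 11.06 in NEMO/Jnk1 DKO and 10.82, 10.99 and 10.85 in NEMO/Jnk2 DKO. It read 11.01, 11.15 and 11.06 in Jnk1 KO and 11.17, 11.09 and 10.92 in Jnk2 KO. Both double knockouts lay below WT. The difference of NEMO/Jnk2 DKO was -0.29 (SE 0.09, limma adjusted p = 0.0883), and it passed without the doubted arrays (SE 0.08, adjusted p = 0.0417). Serpinc1, antithrombin, differed from WT by -0.15 (SE 0.07, adjusted p = 0.289) in NEMO/Jnk2 DKO and by -0.03 (SE 0.07, adjusted p = 0.89) in NEMO/Jnk1 DKO.

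The proteins of fibrinolysis stayed near WT, and none of the 3 passed in any comparison with WT, with or without the doubted arrays. Serpinf2, alpha-2-antiplasmin, read 11.57, 11.63 and 11.54 in WT, 11.33, 11.48 and 11.42 in Jnk1 KO and 11.65, 11.74 and 11.51 in Jnk2 KO. It read 11.20, 11.49 and 11.50 in NEMO/Jnk1 DKO and 11.46, 11.53 and 11.60 in NEMO/Jnk2 DKO. The Jnk1-null arrays lay below WT and the Jnk2-null arrays overlapped it, with -0.17 (SE 0.10, limma adjusted p = 0.866) for Jnk1 KO against WT. Plg, plasminogen, was at -0.14 and -0.13 in the double knockouts (SE 0.09 for both, limma adjusted p = 0.461 and 0.459). Vtn, vitronectin, an adhesion protein that also binds the terminal complement complex, had group means between 12.66 and 12.70.

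**Figure D3:**
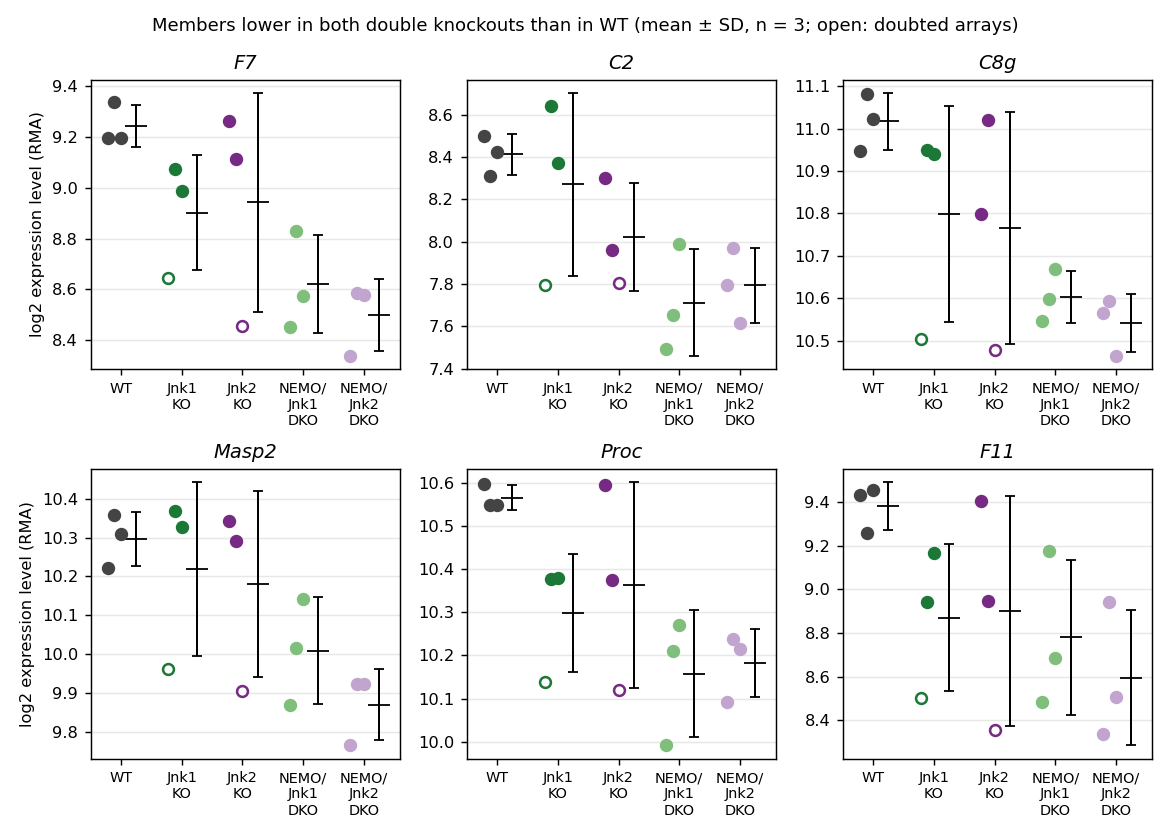
Log2 levels, array by array and group by group, of members that were lower in the double knockouts than in WT, with the group mean ± SD (n = 3) and the doubted arrays as open points. For F7, C8g, Masp2 and Proc the double knockouts lie below all NEMO-intact arrays except the doubted ones.

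Among the 6 components that start the lectin and classical pathways, 3 passed as lower in NEMO/Jnk2 DKO than in WT (4.86% of all genes) and 1 in NEMO/Jnk1 DKO (2.99%) without the doubted arrays, and 0 as labelled. Masp2, the protease that cleaves C4 and C2 when a lectin has bound, read 10.22, 10.36 and 10.31 in WT, 9.87, 10.02 and 10.14 in NEMO/Jnk1 DKO and 9.76, 9.92 and 9.92 in NEMO/Jnk2 DKO. It read 9.96, 10.37 and 10.33 in Jnk1 KO and 10.34, 10.29 and 9.90 in Jnk2 KO. Only the doubted arrays, at 9.96 and 9.90, placed NEMO-intact livers in the range of the double knockouts. The difference of NEMO/Jnk2 DKO from WT was -0.43 (SE 0.13, limma adjusted p = 0.0997), and it passed without the doubted arrays (SE 0.09, adjusted p = 0.00875). NEMO/Jnk1 DKO was at -0.29 (SE 0.13, adjusted p = 0.299).

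C2, which forms the C3 convertase together with C4, had the largest difference from WT of these. It read 8.50, 8.31 and 8.42 in WT, 7.49, 7.66 and 7.99 in NEMO/Jnk1 DKO and 7.79, 7.97 and 7.62 in NEMO/Jnk2 DKO. It read 7.80, 8.64 and 8.37 in Jnk1 KO and 8.30, 7.96 and 7.80 in Jnk2 KO, with the doubted arrays at 7.80 in both. All 6 double knockouts lay below WT, and Jnk2 KO lay below WT and overlapped them. Against WT the differences were -0.70 (SE 0.20, limma adjusted p = 0.136) in NEMO/Jnk1 DKO and -0.62 (SE 0.20, adjusted p = 0.105) in NEMO/Jnk2 DKO. Both passed without the doubted arrays (SE 0.14, limma adjusted p = 0.00893 and 0.0134), and WT was then 1.63-fold and 1.54-fold higher. In NEMO/Jnk1 DKO the value was -0.33 with a sex term (SE 0.17, adjusted p = 0.855) and -0.42 with that term and no doubted arrays (SE 0.18, adjusted p = 0.35), so the call was lost.

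Cfb, factor B, is the counterpart of C2 in the alternative pathway and the neighbouring gene on chromosome 17. It read 11.66 ± 0.05 in WT and 11.54 ± 0.08 in each double knockout (SD, n = 3), with differences of -0.12 in both (SE 0.08, limma adjusted p = 0.517 and 0.507). Whether C2 and Cfb differed in their response was not tested.

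Masp1, the protease that activates Masp2, read 9.38, 9.45 and 9.36 in WT, 9.24, 9.07 and 8.78 in Jnk2 KO and 8.95, 8.91 and 9.21 in NEMO/Jnk2 DKO. It read 9.28, 9.25 and 9.35 in Jnk1 KO and 9.21, 9.11 and 9.32 in NEMO/Jnk1 DKO. The 12 knockout arrays all lay below WT, those without JNK2 furthest by their means. The difference of NEMO/Jnk2 DKO from WT was -0.37 (SE 0.12, limma adjusted p = 0.1), which passed without the doubted arrays (SE 0.10, adjusted p = 0.0307). Jnk2 KO was at -0.37 (SE 0.12, adjusted p = 0.201).

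The mannose-binding lectins bind sugars and carry these proteases. Mbl2, mannose-binding lectin C, read 10.49, 10.84 and 10.78 in WT, 11.11, 10.26 and 10.48 in Jnk1 KO and 10.53, 10.27 and 10.65 in Jnk2 KO. It read 10.79, 10.86 and 11.09 in NEMO/Jnk1 DKO and 10.45, 10.51 and 10.68 in NEMO/Jnk2 DKO. The groups overlapped WT, and the highest single array, at 11.11, was the doubted array of Jnk1 KO. When the doubted arrays were set aside, Mbl2 was higher in NEMO/Jnk1 DKO than in Jnk1 KO by 0.54 (SE 0.14, limma adjusted p = 0.0382), while with them the difference was 0.30. A sex term as well ended this call (0.72, SE 0.18, adjusted p = 0.0891). Mbl1, mannose-binding lectin A, differed from WT by -0.24 (SE 0.17, limma adjusted p = 0.508) without JNK1 and NEMO and by -0.29 (SE 0.17, adjusted p = 0.377) without JNK2 and NEMO.

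C4b, complement C4, read 11.17, 10.93 and 10.88 in Jnk2 KO, all above WT, at 10.66, 10.71 and 10.57. The difference was 0.35 (SE 0.14, limma adjusted p = 0.322). NEMO/Jnk2 DKO, at 10.73 ± 0.07 (SD, n = 3), lay close to WT, at 10.65 ± 0.07. A near-identical copy, C4a, may share its signal.

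Cfp, properdin, which stabilizes the alternative C3 convertase and is made by myeloid cells, was the member with the largest difference upward in NEMO/Jnk1 DKO. It read 6.37, 6.88 and 7.06 in WT, 7.57, 7.20 and 7.17 in Jnk1 KO and 7.37, 6.97 and 6.69 in Jnk2 KO. It read 7.77, 8.18 and 7.26 in NEMO/Jnk1 DKO and 7.26, 7.27 and 6.90 in NEMO/Jnk2 DKO. The difference of NEMO/Jnk1 DKO from WT was 0.97 (SE 0.24, limma adjusted p = 0.11), which passed without the doubted arrays (SE 0.22, adjusted p = 0.0165). With a sex term it was 0.60 (SE 0.24, adjusted p = 0.822), and 0.49 with the doubted arrays also left out (SE 0.26, adjusted p = 0.489), so the call was lost. NEMO/Jnk2 DKO was at 0.37 (SE 0.24, adjusted p = 0.445). Cfp is X-linked, and its highest 3 arrays, at 7.57, 7.77 and 8.18, were the ones with Xist, beside 6.37 to 7.37 in the other 12.

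The inhibitors of complement stayed within a narrow range. Serping1, C1 inhibitor, which also blocks factor XII and kallikrein, read 11.58, 11.78 and 11.67 in WT, 11.61, 11.56 and 11.64 in Jnk1 KO and 11.91, 11.67 and 11.69 in Jnk2 KO. It read 11.30, 11.59 and 11.51 in NEMO/Jnk1 DKO and 11.78, 11.77 and 11.70 in NEMO/Jnk2 DKO. The 6 Jnk2-null arrays lay above the 6 Jnk1-null arrays, and both overlapped WT. Between these sets the difference was 0.22 (SE 0.07, limma adjusted p = 0.253). Cfi, factor I, differed from WT by 0.09 (SE 0.13, limma adjusted p = 0.789) without JNK1 and NEMO and by 0.15 (SE 0.13, adjusted p = 0.589) without JNK2 and NEMO.

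Of the terminal components, which build the membrane pore, C8g was lower in both double knockouts. C8g, the gamma chain of C8, read 10.95, 11.08 and 11.02 in WT, 10.55, 10.60 and 10.67 in NEMO/Jnk1 DKO and 10.57, 10.59 and 10.46 in NEMO/Jnk2 DKO. It read 10.50, 10.95 and 10.94 in Jnk1 KO and 10.80, 11.02 and 10.48 in Jnk2 KO. The doubted arrays, at 10.50 and 10.48, lay with the double knockouts, and the other 7 NEMO-intact arrays lay above all of them. Against WT the differences were -0.41 (SE 0.14, limma adjusted p = 0.166) and -0.48 (SE 0.14, adjusted p = 0.0788). Both passed without the doubted arrays (SE 0.09, adjusted p = 0.0104 and 0.00323). In NEMO/Jnk1 DKO the value was -0.23 with a sex term (SE 0.15, adjusted p = 0.882) and -0.35 with that term and no doubted arrays (SE 0.13, adjusted p = 0.255).

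C8a, C8b and C9 followed another pattern. C8a and C8b, the alpha and beta chains of C8, are neighbours on chromosome 4, and C9 lies on chromosome 15. C8b read 11.50, 11.32 and 11.57 in WT, 9.81, 10.85 and 11.25 in NEMO/Jnk1 DKO and 11.13, 11.35 and 10.96 in NEMO/Jnk2 DKO. It read 10.66, 11.54 and 11.40 in Jnk1 KO and 11.45, 11.27 and 11.09 in Jnk2 KO. The lowest 3 values, 9.81, 10.66 and 10.85, were those of the 3 arrays with Xist, and the other 12 arrays read 10.96 to 11.57.

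C8a read 10.73 in Jnk1 KO replicate 1, 9.94 in NEMO/Jnk1 DKO replicate 1 and 10.84 in its replicate 2, the arrays with Xist. The remaining 12 arrays read 10.97 to 11.35. C9, which polymerizes into the pore, read 10.25, 9.80 and 10.26 there, and at least 10.45 where Xist was low. These 3 members, 8.82% of 34, lay below the range of the other arrays in the arrays with Xist, beside 1.04% of all genes, and Cfp, 2.94% of 34, lay above it, beside 0.868%. The arrays with Xist also differ in genotype, as all are Jnk1-null, and Ly6d read 9.73 to 10.12 in them, as in NEMO loss.

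Against WT, C8a, C8b and C9 were at -0.57, -0.83 and -0.51 in NEMO/Jnk1 DKO (limma adjusted p = 0.192, 0.195 and 0.262). The same differences were 0.07, -0.32 and 0.10 in NEMO/Jnk2 DKO (adjusted p = 0.897, 0.63 and 0.856). NEMO/Jnk1 DKO replicate 3, which had no Xist signal, read 10.99 for C8a, 11.25 for C8b and 10.83 for C9, each within the range of the other arrays without Xist.

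**Figure D4:**
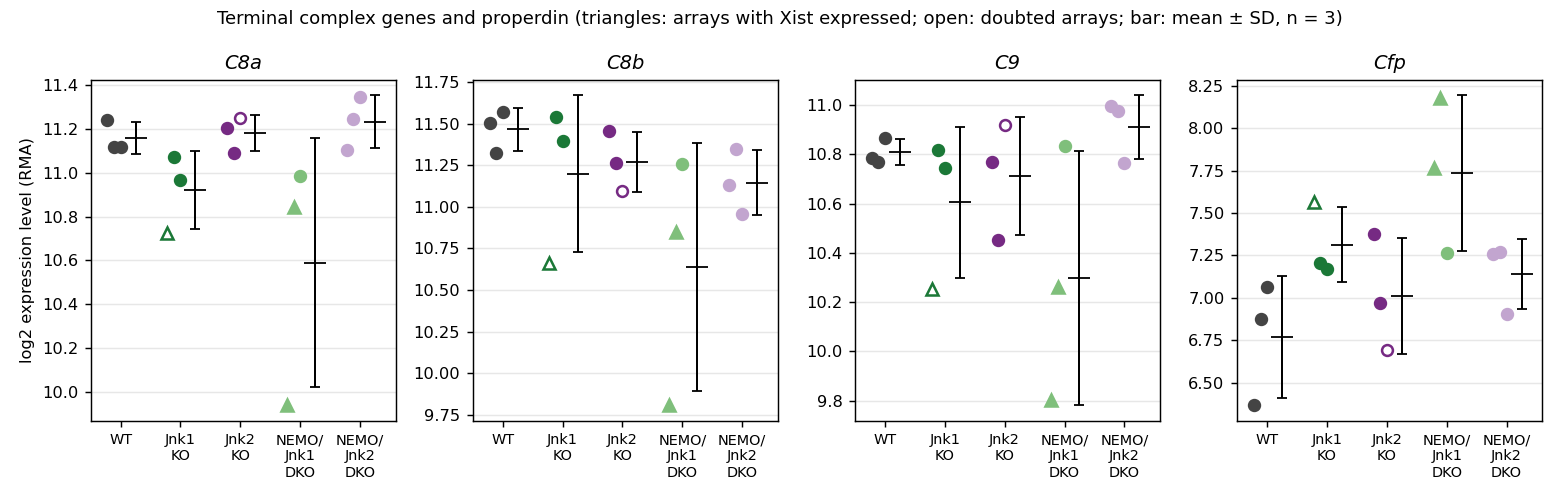
Log2 levels of C8a, C8b, C9 and Cfp in each array, with the 3 arrays that express Xist as triangles, the doubted arrays as open symbols and the group mean ± SD (n = 3) as bars. The triangles are the lowest 3 for C8a, C8b and C9 and the highest 3 for Cfp.

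Over both double knockouts, 10 of the 34 members read lower than WT in all 6 arrays (29.4%; 8.61% of all genes): Masp1, Masp2, C2, C8g, F2, F7, F10, F11, Proc and Serpind1. They come from the lectin pathway, the terminal complex, coagulation and its restraint. Pros1 alone read higher than WT in all 6 double knockouts (2.94% of members, 8.03% of all genes). In Jnk1 KO as labelled, 9 members read lower than WT in all 3 arrays (26.5%, beside 6.21% of all genes). Masp1, F2, F7, F10, F11 and Proc were on both lists. In Jnk2 KO as labelled, 4 members did so (11.8%, beside 10.9% of all genes). Below the 7 NEMO-intact arrays without the doubted ones lay 5 members in all 6 double knockouts (14.7%; 1.82% of all genes), which were Masp2, C8g, F7, Proc and Serpind1. The choice of the 7 arrays by expression favours such a separation, and it is given as a description.

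**Figure D5:**
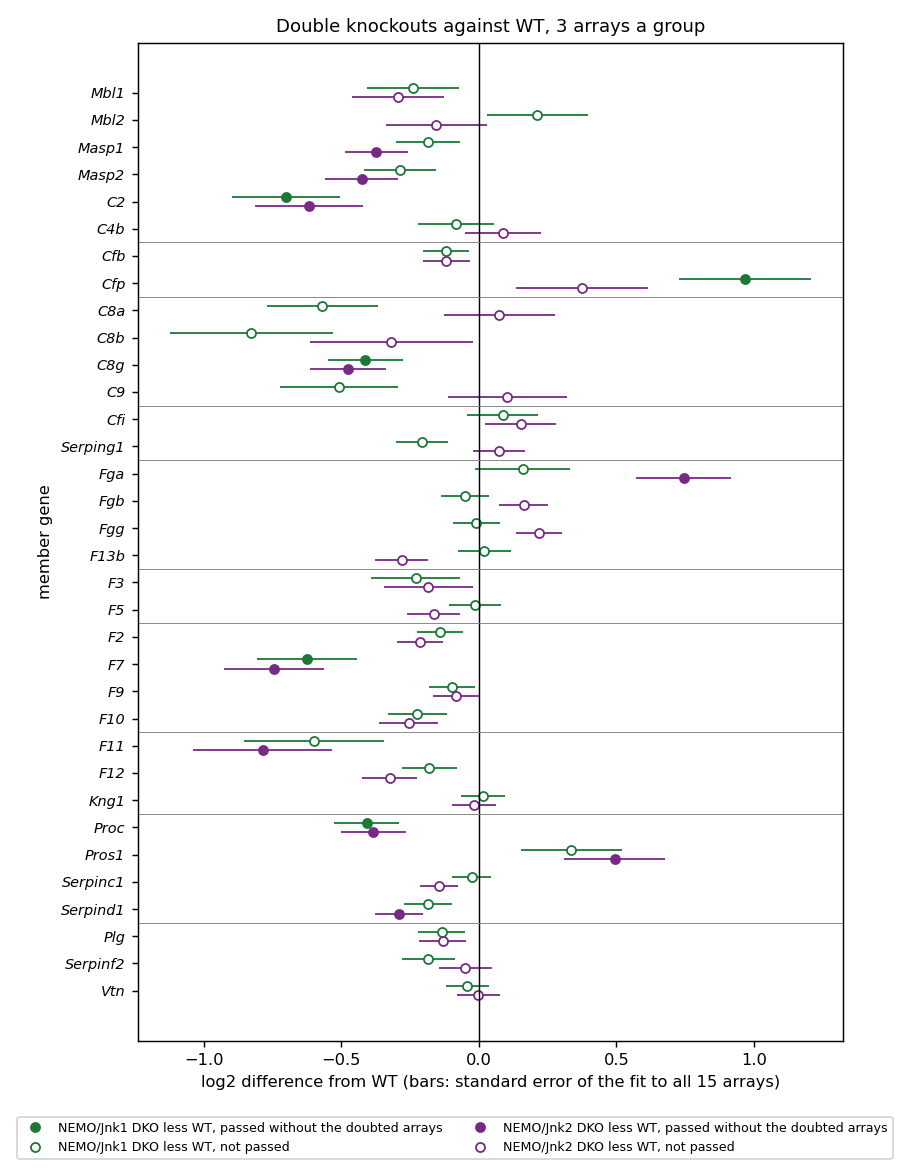
Difference from WT in log2 units with its standard error for each of the 34 measured members in each double knockout. Both share the 3 WT arrays, and F7, C2 and F11 lie below 0 in both while Fga stands at 0.74 in NEMO/Jnk2 DKO and at 0.16 in NEMO/Jnk1 DKO.

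The loss of NEMO was also read against the matching single knockout. As labelled, 0 of 34 members passed between NEMO/Jnk1 DKO and Jnk1 KO in limma (1 at an unadjusted p under 0.05; 0.0% of all genes passed) and 0 between NEMO/Jnk2 DKO and Jnk2 KO (2 at an unadjusted p under 0.05; 0.00502% of all genes). Each of these single-knockout groups holds a doubted array. Without them 2 members passed on the Jnk1-null background (5.18% of all genes), C2 at -0.80 (SE 0.16, limma adjusted p = 0.0107) and Mbl2. Of the arrays left in that comparison, those with Xist are 2 of the 3 NEMO/Jnk1 DKO arrays, and with a sex term 0 members passed (1.21% of all genes), with C2 at -0.52 (SE 0.19, adjusted p = 0.3). On the Jnk2-null background 3 passed (5.85% of all genes), F7, Masp2 at -0.45 (SE 0.10, adjusted p = 0.0207) and C8g at -0.37 (SE 0.10, adjusted p = 0.0423).

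Averaged over both backgrounds, a comparison also added with earlier results known, 0 of 34 members passed as labelled in limma (4 at an unadjusted p under 0.05; 0.00502% of all genes passed). Setting the doubted arrays aside, 7 passed (11.7% of all genes). F7 at -0.55 (SE 0.09, limma adjusted p = 0.00108), C2 at -0.57 (SE 0.11, adjusted p = 0.00495), Masp2 at -0.39 (SE 0.07, adjusted p = 0.00284), C8g at -0.35 (SE 0.07, adjusted p = 0.00404) and Proc at -0.26 (SE 0.08, adjusted p = 0.0399) were lower without NEMO. Mbl2 at 0.34 (SE 0.10, adjusted p = 0.0371) and Pros1 at 0.34 (SE 0.10, adjusted p = 0.0497) were higher. Fga was not among them, at -0.13 (SE 0.13) without the doubted arrays. By its means the backgrounds pointed in opposite directions. Fga was at 10.46 in NEMO/Jnk1 DKO beside 10.28 in Jnk1 KO, and at 11.04 in NEMO/Jnk2 DKO beside 11.48 in Jnk2 KO. With a sex term as well, NEMO/Jnk1 DKO rests on its replicate 3 alone. The median difference of the 34 members for NEMO loss was then -0.05, beside -0.10 without that term.

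The double knockouts were also set against each other, to ask whether it matters which JNK is missing when NEMO is lost. No member passed in limma (8 at an unadjusted p under 0.05; 0.105% of all genes passed). Fga was at -0.59 in NEMO/Jnk1 DKO against NEMO/Jnk2 DKO (SE 0.17, limma adjusted p = 0.478), C8a at -0.64 (SE 0.20, adjusted p = 0.563) and Cfp at 0.59 (SE 0.24, adjusted p = 0.795). The difference of the NEMO effects between the backgrounds passed for no member, with 0 at an unadjusted p under 0.05 in limma (0.0% of all genes passed). It was largest for Fga, at 0.51 (SE 0.24, adjusted p = 1.0). Without the doubted arrays both counts were still 0, with 9 and 4 members at an unadjusted p under 0.05 (0.321% and 0.01% of all genes passed).

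Of 74 further genes of complement and coagulation, such as receptors, regulators on cells and proteins made outside hepatocytes, 66 were measured. As labelled 5 of them passed between NEMO/Jnk2 DKO and WT (2.63% of all genes). Anxa2, annexin A2, which binds plasminogen on cells, was higher by 2.90 (SE 0.71, limma adjusted p = 0.0473). C1qb and C1qc, chains of C1q, a product of macrophages, were higher by 1.35 (SE 0.32, adjusted p = 0.0444) and 1.23 (SE 0.28, adjusted p = 0.0393). Serpina1d, an alpha-1-antitrypsin gene, was lower, at -0.75 (SE 0.17, adjusted p = 0.0334), and so was Vkorc1, which regenerates vitamin K, at -0.57 (SE 0.13, adjusted p = 0.0341).

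Between Jnk2 KO and WT, Cd59a, a membrane inhibitor of the terminal complex, was lower, at -1.07 (SE 0.20, limma adjusted p = 0.0384), the 1 call of 66 (0.411% of all genes). The other 9 comparisons had 0 calls in this list as labelled in limma, with 2 to 20 genes at an unadjusted p under 0.05. With the doubted arrays left out, 16 of the 66 were higher and 4 lower in NEMO/Jnk1 DKO than in WT, beside 1 and 4 of the 34 members and 4.92% and 2.99% of all genes. In NEMO/Jnk2 DKO 16 were higher and 5 lower, beside 2 and 8 of the members and 5.75% and 4.86% of all genes. The macrophage markers given above moved with the C1q genes, and their part was not tested.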

How the data were processed

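Per the labels, RNA from 15 livers was measured on 15 arrays. The authors deposited log2 values. RMA is named, with no version, in the submitters' processing notes, and base 2 was inferred from the range. The table holds 35556 probe sets. The platform's gene table gave 1 symbol for 21789, more than 1 for 1621 and no entry for 12146. The brightest on average was kept for each of 999 genes with several such probe sets, which left 19938 genes.

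Differences were fitted with limma 3.58.1 (R 4.3.3) on all 15 arrays, with 1 mean per group (10 residual and 3.75 prior degrees of freedom), and p-values were adjusted over all genes. Each array has its own mouse identifier in the labels, so p-values measure the spread between these mice. The members, lists, motifs and named genes were chosen with earlier results of these data known. Values in every array are given for members past the threshold in any comparison, with or without the doubted arrays, and for the most variable member of a role without calls. The fit was tested on simulated data.

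Alternatives were a fit to the arrays compared, a trended robust prior, array weights, quantile normalization, median centring, a filter on dim probe sets (13873 genes above 3.69 in 3 arrays), a minimal fold of 1.5, other probe set rules, the replicate number as a block and leaving out each array. Setting the doubted arrays aside (8 and 5.05 degrees of freedom), leaving out the 3 arrays with Xist, and a term for sex, were chosen after seeing the data. Promoter windows came from RefSeq (GRCm38.p6), which held 25 of the 34 members. Figures used matplotlib 3.10.9 in Python 3.11.15.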

Additional observations from a re-analysis of the deposited data

Results flagged for a closer look

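A second probe set of Fga, which the comparisons above do not use because its mean was lower, also stood above WT in the Jnk2-null groups. It read 9.45 ± 0.12 in WT and, of the single knockouts, 9.46 ± 0.04 without JNK1 and 10.94 ± 0.29 without JNK2 (SD, n = 3). The double knockouts read 9.82 ± 0.44 without JNK1 and 10.46 ± 0.40 without JNK2. This probe set did not place all Jnk2-null arrays above the rest. It read 9.99 and 10.14 in NEMO/Jnk1 DKO replicates 2 and 3, above WT (at most 9.58), and 10.10 in NEMO/Jnk2 DKO replicate 1. Its difference from WT was 1.49 for Jnk2 KO and 1.01 for NEMO/Jnk2 DKO, larger than the 1.06 and 0.74 of the probe set used, and it passed in limma when every probe set was tested (adjusted p = 0.00963 and 0.0344). Groups of 3 arrays were too small for a search of the members for single outlying arrays. The doubted arrays were set aside by genes that are not members.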

How the results depend on the processing

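The counts of members that passed moved mainly with the 2 doubted arrays, the estimate of the spread and single arrays. The share of all genes that passed moved with them and stands in parentheses, except where single arrays were left out. Without the doubted arrays 7 members passed for NEMO loss over both backgrounds (11.7%), 2 for NEMO/Jnk1 DKO against Jnk1 KO (5.18%), 5 for NEMO/Jnk1 DKO (7.91%) and 10 for NEMO/Jnk2 DKO (10.6%) against WT, 3 for NEMO/Jnk2 DKO against Jnk2 KO (5.85%) and 1 for Jnk2-null against Jnk1-null (1.12%). With a sex term as well these were, in that order, 4 (6.3%), 0 (1.21%), 0 (1.31%), 10 (10.5%), 2 (5.76%) and 1 (0.587%). For NEMO/Jnk2 DKO against WT and for Jnk2-null against Jnk1-null, the sex term alone gave 5 (5.19%) and 0 (0.381%), and leaving out the 3 arrays with Xist gave 4 (5.87%) and 0 (0.296%, with Fga at 0.73, limma adjusted p = 0.056). Array weights gave 0 between the single knockouts (0.115%), 5 for NEMO/Jnk1 DKO (5.59%) and 10 for NEMO/Jnk2 DKO (9.09%) against WT and 1 for Jnk2-null against Jnk1-null (0.767%). A fit to the arrays compared gave 0 (0.0201%), 4 (6.49%), 8 (9.62%) and 1 (0.406%) for the same. Median centring and quantile normalization each gave 1 for NEMO/Jnk2 DKO against WT (2.67% and 2.29%) and 1 for Jnk2-null against Jnk1-null (0.507% and 0.522%), and the minimal fold of 1.5 gave 1 for the latter (0.341%).

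Leaving out 1 array gave 0 to 1 between the single knockouts, 0 to 1 for Jnk2 KO against WT, 0 to 1 for NEMO loss, 0 to 1 for NEMO/Jnk1 DKO against Jnk1 KO, 0 to 2 for NEMO/Jnk1 DKO and 0 to 5 for NEMO/Jnk2 DKO against WT and 1 to 2 for Jnk2-null against Jnk1-null. The share of all genes is not given for these counts, so they are not read as a result about the members. With the replicate block 0 passed for NEMO/Jnk2 DKO against WT (1.32%) and 1 for Jnk2-null against Jnk1-null (0.411%). The replicate numbers gave no sign of pairing, though so few arrays cannot settle it. Of 30 pairs with the same number, 4 had a correlation of deviations over 0.1 (from -0.395 to 0.304). Of 60 pairs with different numbers, 11 had one (from -0.463 to 0.569).

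Of 1102 values of single members under the 29 alternatives, 0 reversed, 62 lost their call, 77 gained one and 963 kept their side of the threshold. The cause was not tested, except that fewer arrays leave fewer degrees of freedom. Depth is not a property of arrays, and F3 lay near the array medians, where small differences are least certain.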
